A study of Mus musculus with 12 samples.

Results

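HIF1A binding at 4% and at 20% O2 was compared in N1E115 cells, a mouse neuroblastoma line described in the labels as positive for NOS1, the neuronal nitric oxide synthase. The members are the 4 HIF1A peak lists of a series of 12 samples, chosen by antibody and oxygen level in the sample titles. They are 2 lists from cells at 4% O2 and 2 from cells at 20% O2, numbered replicate 1 and replicate 2 at each level. All groups are the same line and had the same 3 days of culture at 5% CO2, so the oxygen level is the only labelled condition that separates them. The lists can also differ in library, depth and input, which cannot be told apart from oxygen here. The remaining samples are 4 ARNT ChIP samples and 4 inputs. No genotype, transgene or drug is given, and the line is a single tumour line without a normal counterpart. Whether the replicates are separate cultures is not stated in the labels, so every spread given here is one between these samples and may be technical. Peak lists do not show expression, so the identity of the line could not be checked against marker genes.

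HIF-1 is a transcription factor of paired chains, and HIF1A is the one that oxygen controls. When oxygen is plentiful, prolyl hydroxylases such as EGLN1 mark HIF1A for destruction by the VHL ubiquitin ligase, and when oxygen is scarce HIF1A accumulates, pairs with ARNT and binds DNA at the HIF response element. Its best known target genes encode glycolytic enzymes, mitophagy receptors, collagen hydroxylases, angiogenic factors and the hydroxylases that degrade HIF1A itself. The core of the response element reads ACGTG or GCGTG.

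The sequences of 4 promoters with high HIF1A peaks at 4% O2 show this core. They are given from RefSeq (GRCm38.p6, the same assembly as mm10), 5′ to 3′ on the strand of the gene and upstream of its start, within 50 bases of the summit of 4% O2 replicate 2 (of 20% O2 replicate 2 for the last set). Capitals mark ACGTG or GCGTG on either strand. The rank of a peak is its place by score in its own list, with 1 for the highest.

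Pgam1 (chr19:41911723-41911823, + strand): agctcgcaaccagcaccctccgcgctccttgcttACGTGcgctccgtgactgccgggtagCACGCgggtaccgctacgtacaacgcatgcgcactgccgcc
Pgk1 (chrX:106186889-106186989, + strand): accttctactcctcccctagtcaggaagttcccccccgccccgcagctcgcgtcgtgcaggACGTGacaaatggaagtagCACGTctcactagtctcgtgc
Ldha (chr7:46845698-46845798, + strand): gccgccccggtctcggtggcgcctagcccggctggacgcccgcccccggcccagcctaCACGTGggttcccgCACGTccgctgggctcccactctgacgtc
P4ha1 (chr10:59323231-59323295, + strand): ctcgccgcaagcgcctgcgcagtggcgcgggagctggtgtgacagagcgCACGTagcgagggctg

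The peak over the Pgam1 stretch ranked 1 in both 4% O2 lists, 979 in 20% O2 replicate 1 and 3 in 20% O2 replicate 2. That over the P4ha1 stretch ranked 11 and 2 at 4% O2, was not called in 20% O2 replicate 1 and ranked 4 in 20% O2 replicate 2. At both promoters the 4% O2 lists had the site near the top, one 20% O2 list had it near the top as well, and the other had it lower or not at all.

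Most promoters gained at 4% O2 carried the same core, with ACGTG in 67.1% of 331. A gained site has a peak in both 4% O2 lists and in neither 20% O2 list when each list is cut to its 5393 highest peaks, the length of the shortest. Of 243 stretches from such promoters of protein-coding genes, 3 of the highest by rank are shown, with capitals for the same cores.

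Helb (chr10:120113080-120113180, - strand): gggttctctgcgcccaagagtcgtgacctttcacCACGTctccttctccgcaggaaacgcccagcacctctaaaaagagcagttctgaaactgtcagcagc
Mthfd1l (chr10:3973005-3973074, + strand): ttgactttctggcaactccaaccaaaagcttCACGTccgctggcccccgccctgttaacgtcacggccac
Irgq (chr7:24530542-24530642, + strand): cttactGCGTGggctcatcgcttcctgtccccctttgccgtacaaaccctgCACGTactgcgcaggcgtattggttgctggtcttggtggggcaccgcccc

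Helb, which encodes a DNA helicase, had its peak at rank 470 and 268 at 4% O2, at no rank in 20% O2 replicate 1 and at 6945 in 20% O2 replicate 2. Mthfd1l, a mitochondrial folate enzyme, had ranks of 393 and 563, none, and 7481.

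Some promoters lost at equal length held other motifs, which some kept promoters held as well. Of 95 stretches at promoters of protein-coding genes called within the 5393 highest peaks of both 20% O2 lists and of neither 4% O2 list, the 4 highest by rank are shown first. Capitals mark CCATNTT on either strand (AANATGG on the other), the core bound by the zinc finger factor YY1, or the HIF cores above. This motif was searched after these sequences had been seen. They are followed by 3 with the cAMP response element TGACGTCA, the palindrome bound by CREB and ATF factors, the highest by rank that hold it. Of 118 lost promoters 26.3% held TGACGTCA and 32.2% held CCATNTT, so most lacked each motif. The stretch that ranked after the first 4, at Rab13, held none of the marked motifs and is not shown.

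Exosc2 (chr2:31670588-31670688, + strand): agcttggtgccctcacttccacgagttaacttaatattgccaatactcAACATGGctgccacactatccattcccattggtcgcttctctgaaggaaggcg
Napepld (chr5:21701775-21701872, - strand): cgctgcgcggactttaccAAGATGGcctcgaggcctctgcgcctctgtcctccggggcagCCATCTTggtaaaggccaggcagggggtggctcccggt
N4bp1 (chr8:86885328-86885428, - strand): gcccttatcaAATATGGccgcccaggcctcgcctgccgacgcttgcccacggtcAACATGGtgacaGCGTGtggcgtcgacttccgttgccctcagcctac
Ccdc167 (chr17:29717018-29717118, - strand): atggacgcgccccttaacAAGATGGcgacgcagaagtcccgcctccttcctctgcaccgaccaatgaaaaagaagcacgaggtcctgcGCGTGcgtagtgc
Ndufa10 (chr1:92473768-92473868, - strand): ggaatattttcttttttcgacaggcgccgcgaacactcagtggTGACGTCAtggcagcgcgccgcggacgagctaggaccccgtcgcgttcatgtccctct
Amn1 (chr6:149188696-149188766, - strand): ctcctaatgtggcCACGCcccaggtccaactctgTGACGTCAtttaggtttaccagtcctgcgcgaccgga
Dusp8 (chr7:142095297-142095397, - strand): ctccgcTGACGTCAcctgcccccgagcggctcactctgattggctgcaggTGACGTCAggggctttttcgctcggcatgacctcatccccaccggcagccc

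Exosc2, an RNA exosome subunit, had peaks at ranks 337 and 611 at 20% O2 and at 8242 and 13640 at 4% O2. Ndufa10, a subunit of respiratory complex I, had ranks of 330 and 1325 at 20% O2, 6588 in 4% O2 replicate 1 and none in 4% O2 replicate 2. Dusp8, a phosphatase of MAP kinases, had ranks of 1533 and 467 at 20% O2 and 12041 and 7219 at 4% O2. These sites were thus called in at least 1 list at 4% O2, but outside its 5393 highest peaks.

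The oxygen difference in the number of peaks rested on replicate 1. In replicate 1 the 4% O2 list held 42701 peaks and the 20% O2 list 5393. In replicate 2 they held 13655 and 13386. The 20% O2 lists lay below both 4% O2 lists, by a wide margin in replicate 1 and a narrow one in replicate 2. The mean log2 ratio was 1.51 ± 2.09 (SD of the replicate differences, n = 2), with 2.99 for replicate 1 and 0.03 for replicate 2 (exact permutation test, two-sided, p = 0.333, and 2 against 2 can give no lower p). Replicate 1 and replicate 2 lists also differ in kind. Replicate 1 entries are intervals with a median width of 182 bp at 4% O2 and 152 bp at 20% O2, and all replicate 2 entries are 1 bp summits. The lists hold no read counts, so the depth behind a peak is unknown, and the number called may move with it, which was not tested. The replicate 1 lists share a lane per the file headers, and the HIF1A lists of each replicate number were called against an input of its own. For these reasons sites were compared within each replicate number, as windows of 100 bp either side of the peak centre, and again with every list cut to its 5393 highest peaks.

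With whole lists, lost sites (called at 20% O2 only) were rare in replicate 1 and nearly as many as gained sites in replicate 2. Of 42701 sites at 4% O2 in replicate 1, 37786 were gained (88.5%, 95% Wilson interval 88.2 to 88.8), that is, no 20% O2 window of the same replicate overlapped them. Of 13655 sites in replicate 2, 6849 were gained (50.2%, 49.3 to 51.0). In the other direction, 448 of 5393 sites at 20% O2 in replicate 1 (8.31%) and 6544 of 13386 in replicate 2 (48.9%) were lost, with no 4% O2 window over them. The mean gained share was 69.3% ± 27.1 (SD, n = 2) and the mean lost share 28.6% ± 28.7. Intervals here cover counting of sites only. List length bounds these shares. With 42701 sites against 5393 in replicate 1, most 4% O2 sites would be gained even if every 20% O2 peak overlapped one. A longer 4% O2 list can also lower the lost share. In replicate 2 the 2 lists are close in length, which makes the gained and lost counts close as well. Whether the shares differ from what length alone gives was not tested.

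At equal length both replicates showed turnover of most of the list. In replicate 1, 3842 of 5393 sites at 4% O2 were gained (71.2%), and 3813 of those at 20% O2 were lost (70.7%). In replicate 2, 3234 were gained (60.0%) and 3233 lost (59.9%). Lists of the same length give nearly equal gained and lost counts by construction. The mean gained share was 65.6% ± 7.97 (SD, n = 2), a far narrower spread than with whole lists. Among the 1000 highest peaks of each list the replicates parted again, with 94.2% gained in replicate 1 and 58.9% in replicate 2. For 20% O2 replicate 1 equal length means the whole list, down to its weakest call, whereas for the others it is the upper end.

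**Figure D1:**
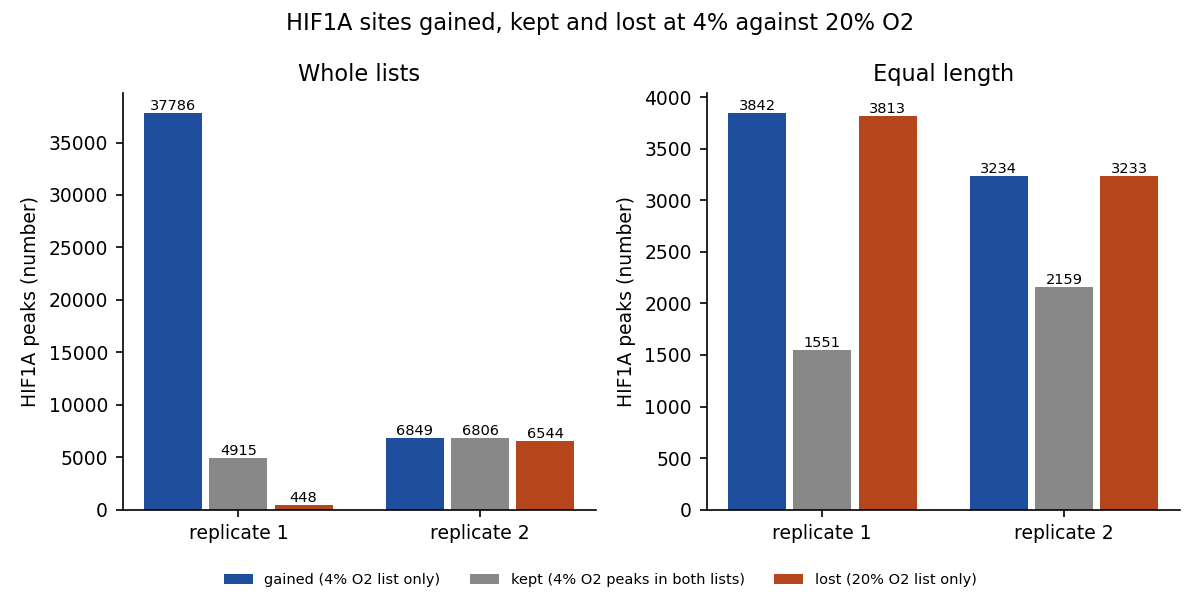
Bars give the number of HIF1A peaks gained (blue), kept (grey) and lost (red) at 4% against 20% O2 for each replicate number, with whole lists at left and the 5393 highest peaks of each list at right. Gained sites outnumber lost ones 37786 to 448 in replicate 1 with whole lists, where the 4% O2 list is far longer. The bars for gained and lost are nearly level in the other 3 cases, which follows from lists of equal or close length.

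A direct look at the strongest sites set one library apart. Because the strongest replicate 1 intervals are wide (median 1334 bp among the 100 highest of 4% O2 replicate 1), their centres can lie away from the summit, so lists were compared here with each interval joined to its window. Of the 100 highest peaks, the 4% O2 replicates shared 87.0% and the 20% O2 replicates 19.0%. Across oxygen levels, 20% O2 replicate 2 shared 66.0% with 4% O2 replicate 1 and 65.0% with 4% O2 replicate 2, while 20% O2 replicate 1 shared 3.0% with each. The strongest sites of 20% O2 replicate 2 were therefore more often those of the 4% O2 lists than those of the other 20% O2 list. With 5393 peaks the order was another: the 4% O2 replicates shared 74.7% and the 20% O2 replicates 55.3%, both more than any pair across oxygen levels (20.8% to 49.1%).

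**Figure D2:**
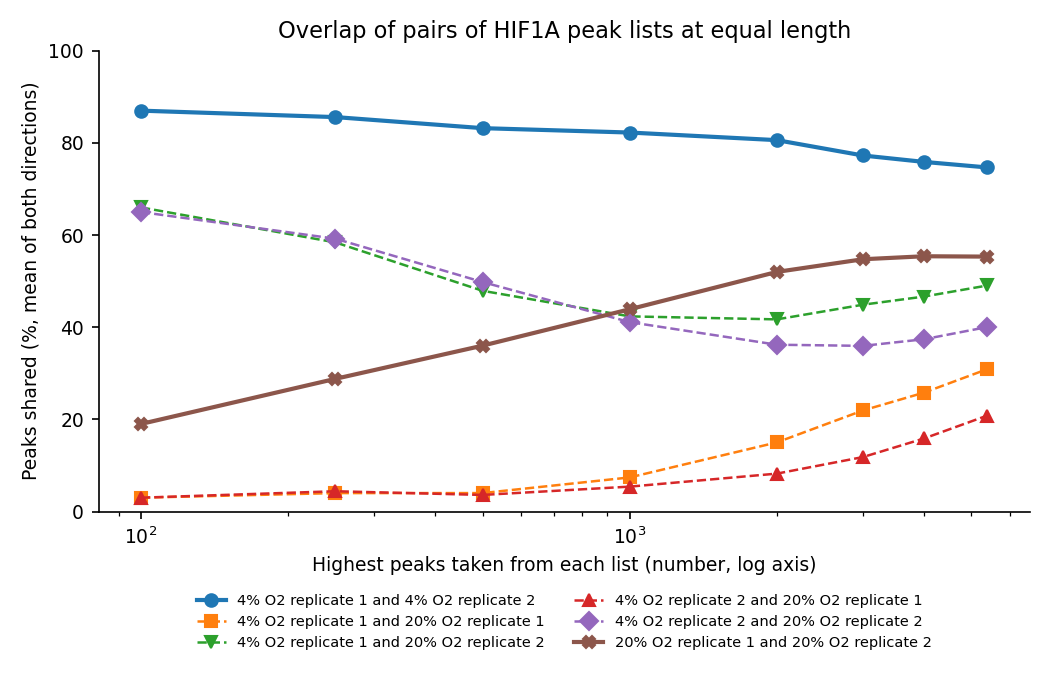
Each line is a pair of HIF1A lists, with the number of highest peaks taken from each list on a log axis and the percent shared (mean of both directions) on the vertical axis. The 2 pairs at the same oxygen level are solid lines, and the pair at 20% O2 climbs from 19.0% to 55.3% while the pairs that join 4% O2 lists with 20% O2 replicate 2 start near 65%.

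The strong 4% O2 sites were all called in 20% O2 replicate 2 and mostly not in 20% O2 replicate 1. All of the 100 highest peaks of each 4% O2 list were called somewhere in 20% O2 replicate 2 (100%), but 37.0% and 29.0% of them in 20% O2 replicate 1. The 100 highest peaks of 20% O2 replicate 1 were found in 4% O2 replicate 1 in 100% of cases and in replicate 2 in 90%. Over regions shared by 2 lists, the Spearman correlation of the authors' scores was 0.76 between the 4% O2 replicates (12716 regions) and 0.59 between the 20% O2 replicates (4543 regions). Within replicate numbers it was 0.33 across oxygen in replicate 1 (4983 regions) and 0.36 in replicate 2 (6805 regions). These correlations describe regions of the same cells and have no p. Where a site was kept in replicate 2, the summits at the 2 oxygen levels lay a median of 21 bp apart (6806 peaks).

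Merging the 4 lists gave 43776 regions, of which 5780 were gained in both replicates, 2670 were kept in all 4 lists and 152 were lost in both. At equal length there were 11210 regions, of which 1860 were gained, 871 kept and 1515 lost. Most of these 1515 had not vanished: 95.4% overlapped a peak somewhere in 4% O2 replicate 1 and 40.5% in replicate 2, and 67 regions overlapped none. Of the 1860 gained regions, 43.8% overlapped a peak lower down in 20% O2 replicate 2, and 1046 overlapped no 20% O2 peak. In 20% O2 replicate 1 none could overlap, since its whole list is the equal length.

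Gained regions of whole lists were led by sites away from gene ends. The highest lay inside Kcnab2, a potassium channel subunit (mm10 chr4:152410902-152411238), at ranks of 475 and 233 in the 4% O2 lists. Others of the 10 highest lay in Pebp4, Gphn and Dpp4 and between genes nearest to Syt1, Egfl7, Actl6a, Bdh1 and Tiparp. These named regions were 9079 to 67731 bp from the nearest gene end. The best rank that any of them reached in a 4% O2 list was 233. With lists of equal length, regions at Vamp9, Helb, Adgrb1, Swap70, Rbpj, which encodes the DNA-binding partner of Notch, and Rap1gap joined Kcnab2, Pebp4, Syt1 and Egfl7. All of those that joined had a peak in 20% O2 replicate 2 at ranks from 5441 to 9916.

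Regions kept in all 4 lists were led by Narf (chr11:121235504-121237923), at ranks 6, 8, 4 and 1 in 4% O2 replicates 1 and 2 and 20% O2 replicates 1 and 2. Ankrd37 (chr8:45998694-46001680), a small ankyrin repeat gene and established HIF-1 target, came next at 15, 14, 32 and 2. The groups overlapped at Ankrd37, whereas Narf stood nearer the top in both 20% O2 lists, with all 4 ranks within the 8 highest. Slc26a8, an anion transporter, stood at 4, 15, 121 and 13, and Sh3gl1, an endophilin of membrane traffic, at 36, 80, 206 and 28. The remaining 6 were nearest to Chd2, Lrrc4c, Fbxo8, Slc18a1, Rpusd4 and Szrd1, and of these only the region at Szrd1 was within 5 kb of a gene end. The region nearest to Lrrc4c lay 1030670 bp from a gene end. No filter for artefact-prone regions was applied to the lists here.

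Regions lost in both replicates at equal length were led by a site 39380 bp from Gng4 (chr13:13867173-13867379), at ranks 29 and 84 at 20% O2 and 12708 and 6978 at 4% O2. Next came sites near Cfap126, Meis2, a homeobox gene, Gm40369, Trim7, Olfml1, Lpin1, Shf, Pir and Fgf20, at ranks of 41 to 459 at 20% O2. At 4% O2 each of the 10 had a peak in replicate 1, at ranks of 5733 to 19087, and 4 of them had none in replicate 2. With whole lists the highest lost regions were 2 regions near Fcgr4, at ranks 127 and 661 and 378 and 384 at 20% O2, and the others lay near Dhx37, H4bc24, BC035044, Zfp213, 1700028K03Rik, Syn3, Klrb1c and Urb2.

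Within 5 kb of a gene end both 4% O2 lists had the larger shares of sites. Within 1 kb the groups overlapped with whole lists but not at equal length. The share of peaks within 5 kb of either end of a protein-coding gene was 35.2% in replicate 1 and 40.9% in replicate 2 at 4% O2. At 20% O2 it was 16.7% in replicate 1 and 33.9% in replicate 2. Both 4% O2 lists lay above both 20% O2 lists. The means were 38.1% ± 4.05 and 25.3% ± 12.2 (SD, n = 2 each), a difference of 12.7 percentage points (exact permutation test, two-sided, p = 0.333). Within 1 kb the shares with whole lists were 21.8% and 27.6% at 4% O2 against 7.77% and 22.7% at 20% O2. The groups thus overlapped, with a difference of 9.51 points (exact permutation test, p = 0.667). At equal length the shares within 1 kb were 25.1% and 30.6% against 7.77% and 23.0%, without overlap. At equal length the shares within 5 kb were 38.3% and 44.5% against 16.7% and 33.9%, a difference of 16.1 points (exact permutation test, p = 0.333). Among the 100 highest peaks they were 57.0% and 65.0% against 22.0% and 59.0%, so that 20% O2 replicate 2 resembled the 4% O2 lists at its top. By class, 42.3% of gained, 24.7% of kept and 19.5% of lost regions lay within 5 kb of a gene end at equal length, beside 32.7% of all 11210.

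Lost sites included many at tRNA genes, short genes transcribed by RNA polymerase III. Of the 5393 highest peaks, 13 and 13 lay within 1 kb of a tRNA gene at 4% O2, and 148 and 149 at 20% O2. The 4 lists fell into 2 pairs that match the oxygen level. Among 408 tRNA genes in the annotation, 21 and 19 had such a peak at 4% O2 and 167 and 164 at 20% O2. Among the 1000 highest peaks there were 2 and 2 against 55 and 44. With whole lists the separation ended, at 193 and 39 peaks against 148 and 190, and 4% O2 replicate 1 then had the most. By class at equal length, 118 of 1515 lost regions, 7 of 871 kept and 2 of 1860 gained regions lay within 1 kb of a tRNA gene, beside 169 of all 11210 (1.51%). Of the 10 highest lost regions at equal length, those near Cfap126, Trim7 and Shf were such sites, and of the 10 highest with whole lists, 5 were.

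With whole lists a longer list reached more genes, and at equal length the lists still differed in the number of genes. Of 21631 protein-coding genes, 10274 (47.5%) and 5418 (25.0%) had a peak within 5 kb of an end at 4% O2, and 1006 (4.65%) and 4647 (21.5%) at 20% O2. In replicate 1, 9287 genes were gained (42.9%), 987 kept (4.56%) and 19 lost (0.0878%). In replicate 2, 2128 were gained (9.84%), 3290 kept (15.2%) and 1357 lost (6.27%). In both replicates together 2048 genes were gained (9.47%), 700 kept (3.24%) and 10 lost (0.0462%). At equal length the 4 lists reached 2399 (11.1%), 2801 (12.9%), 1006 (4.65%) and 2155 genes (9.96%). Replicate 1 then had 1915 genes gained (8.85%), 484 kept (2.24%) and 522 lost (2.41%), and replicate 2 had 1427 (6.60%), 1374 (6.35%) and 781 (3.61%). In both replicates 799 genes were gained (3.69%), 355 kept (1.64%) and 271 lost (1.25%). These percentages of all genes are the background for the gene lists that follow, and no list was tested. Of the genes kept at equal length, 220 of 484 (45.5%) ranked nearer the top at 4% O2 in replicate 1 and 877 of 1374 (63.8%) in replicate 2. Ranks set side by side below are counted from the top of each list, as at equal length, and not as a share of its length.

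**Figure D3:**
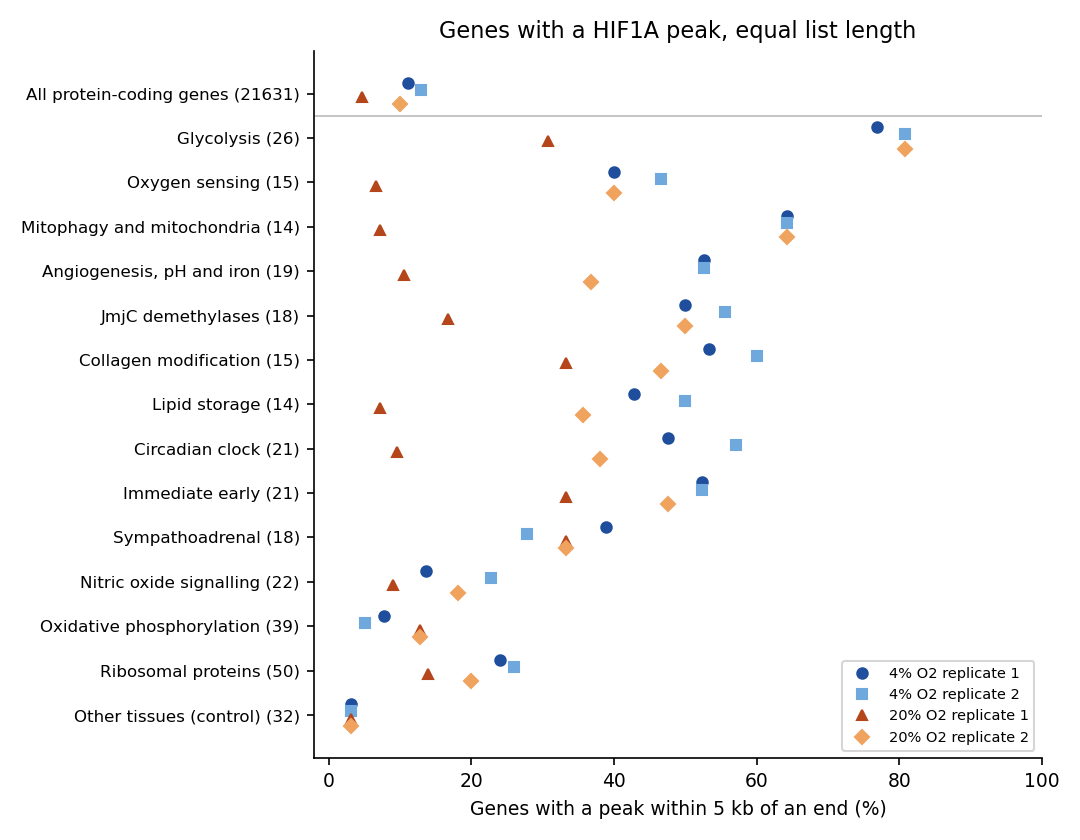
Points give the percent of each gene list, with its number of genes in brackets, that has a HIF1A peak within 5 kb of an end among the 5393 highest peaks of each of the 4 lists. All protein-coding genes are the top row, at 11.1%, 12.9%, 4.65% and 9.96%. In glycolysis 20% O2 replicate 2 sits with both 4% O2 lists near 80%, while in oxidative phosphorylation the 20% O2 points are the higher ones.

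Most glycolysis genes had a peak in both 4% O2 lists and in 20% O2 replicate 2, and 8 of 26 (30.8%, beside 4.65% of all genes) in 20% O2 replicate 1. Of 26 genes for glucose uptake, glycolysis and lactate export, 20 and 21 had a peak at 4% O2 and 8 and 21 at 20% O2, all at equal length. No gene of the list was lost in either replicate. In replicate 1, 12 were gained and 8 kept, and in replicate 2 none was gained and 21 were kept. The 8 kept in all 4 lists were Pgam1, Pfkl, Slc16a3, Eno1, Pgk1, Pkm, Gapdh and Tpi1. Pfkl, the liver-type phosphofructokinase, ranked 2 and 3 at 4% O2 and 1140 and 8 at 20% O2. Slc16a3, the lactate exporter MCT4, ranked 8 and 6 against 2999 and 12. Eno1, an enolase, ranked 18 and 23 against 560 and 10. All 3 ranked within the 23 highest of every list but 20% O2 replicate 1. Over genes with peaks at both levels at equal length the median rank was 9 at 4% O2 and 2070 at 20% O2 in replicate 1 (8 genes), and 49 and 51 in replicate 2 (21 genes). Over all such genes these medians were 2281 and 1898 in replicate 1 (484 genes) and 1338.5 and 2011.5 in replicate 2 (1374 genes). Of the glycolysis genes, 8 of 8 ranked nearer the top at 4% O2 in replicate 1 and 14 of 21 in replicate 2. Over all such genes the shares were 45.5% and 63.8%.

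Ldha, lactate dehydrogenase A, illustrates the split between the 20% O2 lists. It had 7 and 5 peaks at 4% O2 within the gene or 5 kb of it, with best ranks of 61 and 49. At 20% O2 it had none in replicate 1 and 2 in replicate 2, the best at rank 37. Pgk1, phosphoglycerate kinase, had 4 and 3 peaks at 4% O2 against 1 and 2 at 20% O2, with best ranks of 3, 4, 3947 and 5. Pdk1, which diverts pyruvate from the mitochondria, ranked 46, 20, not called and 36. With whole lists 2 glycolysis genes were gained in both replicates, Slc2a3, a glucose transporter, at ranks of 18281 and 13600 and Pfkfb3, a regulator of phosphofructokinase, at 25083 and 10880, outside the 5393 highest of either list.

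Genes of mitophagy and mitochondrial adaptation showed the same split. Of 14, 9 and 9 had a peak at 4% O2 at equal length (64.3% in each). At 20% O2, 1 and 9 had one (7.14% and 64.3%), and none was lost. Bnip3, a mitophagy receptor, ranked 44 and 31 at 4% O2, was not called in 20% O2 replicate 1 and ranked 47 in replicate 2. Ddit4, an inhibitor of mTORC1 and the one member kept in all 4 lists, ranked 64, 35, 4149 and 22. Cox4i2, a cytochrome oxidase subunit isoform induced by hypoxia, ranked 483 and 454 at 4% O2 and 4914 in 20% O2 replicate 2, well below Bnip3 in that list. In replicate 2, 8 of the 9 genes shared at equal length ranked nearer the top at 4% O2, with medians of 83 and 129, beside 63.8% of all such genes.

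Oxygen-sensing genes were the hydroxylases, the VHL ligase and modifiers of HIF. Of 15, 6 and 7 had a peak at 4% O2 at equal length (40.0% and 46.7%). At 20% O2, 1 and 6 had one (6.67% and 40.0%). Egln1, the main HIF prolyl hydroxylase, ranked 291 and 224 at 4% O2, was not called in 20% O2 replicate 1 and ranked 1807 in replicate 2. Vhl ranked 1447 and 591, not called, and 4788. Both ranked lower or were not called at 20% O2. The median rank over 6 genes of the list shared at equal length in replicate 2 was 682.5 at 4% and 2715 at 20% O2. Over all such genes the medians were 1338.5 and 2011.5. Of the 6, 4 ranked nearer the top at 4% O2, beside 63.8% of all such genes. With whole lists Egln2 and Egln3 were gained by peaks near their ends, at ranks of 11421 and 4808 and of 19088 and 8921. A stronger site lies inside Egln3: counting the gene and the 5 kb around it, Egln3 had 10, 5, 2 and 3 peaks with best ranks of 9, 11, 1491 and 6. By this count Egln3 was kept in all 4 lists.

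Angiogenesis, pH and iron genes included 3 genes gained in both replicates at equal length. Of 19, 10 and 10 had a peak at 4% O2 (52.6% in each) and 2 and 7 at 20% O2 (10.5% and 36.8%). The 3 gained were Pgf, Vegfa and Hmox1. Vegfa, the main angiogenic growth factor, ranked 563 and 991 at 4% O2, was not called in 20% O2 replicate 1 and ranked 6730 in replicate 2. In the gene and the 5 kb around it Vegfa had 6 and 3 peaks at 4% O2 against 0 and 2 at 20% O2. Pgf, a placental relative of Vegfa, ranked 1088 and 602 against none and 6638, and Hmox1, a heme oxygenase, 2595 and 5085 against none and 9784. Adm, the vasodilator adrenomedullin, ranked 160 and 157 at 4% O2, was not called in 20% O2 replicate 1 and ranked 1605 in replicate 2. All 4 genes thus ranked nearer the top in both 4% O2 lists than in either 20% O2 list. Tfrc, the transferrin receptor, and Nos3, the endothelial nitric oxide synthase, were kept in all 4 lists, at 195, 204, 2232 and 72 and at 298, 320, 882 and 454. With whole lists the gained members were Vegfb and Angpt2. In replicate 2, 6 of 7 genes shared at equal length ranked nearer the top at 4% O2, with medians of 214 and 580, beside 63.8% of all such genes.

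**Figure D4:**
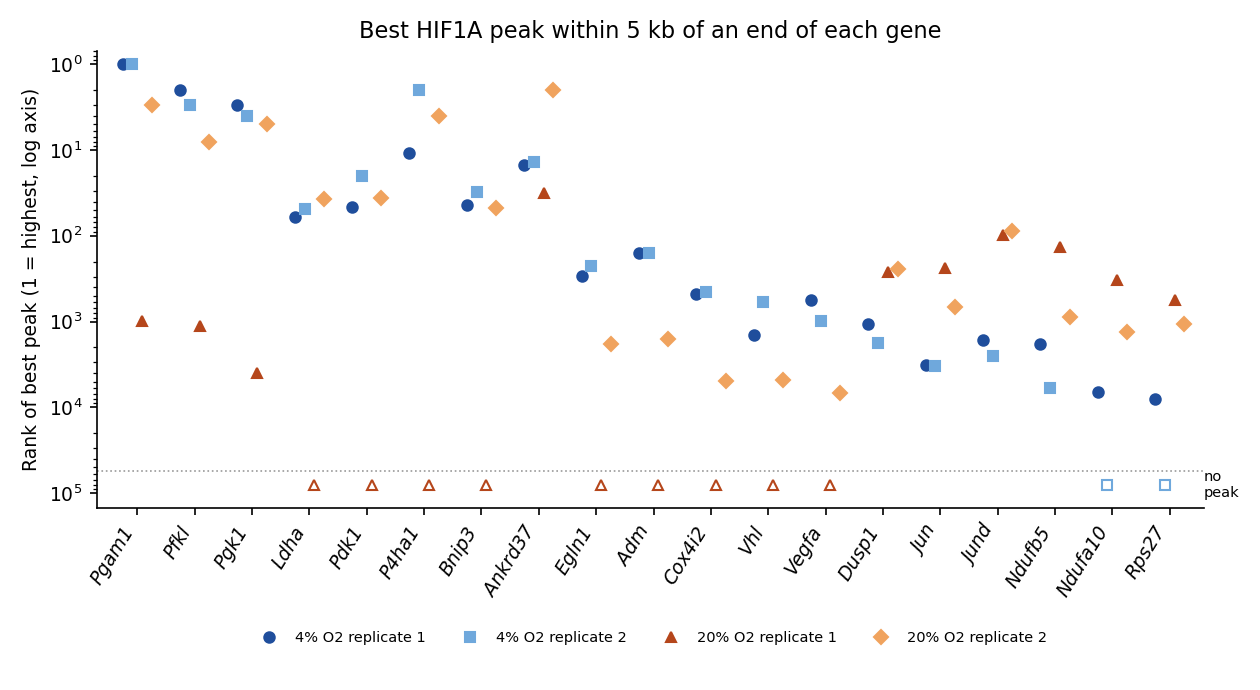
The rank of the best HIF1A peak within 5 kb of an end of each gene is plotted on a log axis with rank 1 at the top, for the 4 lists, and open symbols in the lowest band mark lists without a peak there. From Ldha to Bnip3 only 20% O2 replicate 1 (triangles) has no peak, from Egln1 to Vegfa both 20% O2 lists sit below both 4% O2 lists, and from Dusp1 to Rps27 both sit above, counted from the top of each list. The genes were picked and ordered with their ranks known, so the grouping is not a result. Members of the same lists that go otherwise, such as Btg2, Fosb and Sdhb, are not plotted.

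Histone demethylases of the JmjC family, which need oxygen as HIF hydroxylases do, had peaks at 9 and 10 of 18 genes at 4% O2 and 3 and 9 at 20% O2 at equal length. Kdm3a, Kdm6b and Phf8 were kept in all 4 lists, with Kdm3a at 25, 32, 3297 and 23. Kdm2b was gained with whole lists, at 8476 and 2119. Of 15 genes of collagen hydroxylation, cross-linking and matrix, 8 and 9 had a peak at 4% O2 (53.3% and 60.0%). At 20% O2, 5 and 7 had one (33.3% and 46.7%). P4ha2, Plod1, Plod2 and Loxl3 were kept in all 4 lists. Loxl2, a collagen cross-linking oxidase, ranked 567 and 798 at 4% O2 and 5519 in 20% O2 replicate 2, and was gained in both replicates. Loxl1, a related oxidase that acts on elastin, was lost at equal length, at 9816 and none at 4% O2 and 1426 and 3119 at 20% O2. Fn1 was gained with whole lists, at 19488 and 4281.

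Of 14 lipid storage genes, 6 and 7 had a peak at 4% O2 and 1 and 5 at 20% O2. Lpin1, a phosphatidate phosphatase, was gained at equal length (1789 and 3960 against none and 12270), Plin2 with whole lists (20084 and 10073), and Dgat1 was kept (2773, 2338, 2543 and 3231). Of 21 clock genes, 10 and 12 had a peak at 4% O2 (47.6% and 57.1%) and 2 and 8 at 20% O2 (9.52% and 38.1%). Cry1 and Cry2, the cryptochrome repressors, were gained at equal length. Cry1 ranked 4981 and 1884 at 4% O2 with no peak in either 20% O2 list, and Cry2 ranked 1486 and 1188 against none and 8983. Per3 was gained with whole lists only, at 11118 and 5346. Per1, which is both a clock and a cAMP-responsive gene, was kept, at 2974 and 2245 at 4% O2 and 1391 and 962 at 20% O2.

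Immediate early genes, the first to respond to growth factors and to cAMP or calcium signals, included members whose peaks ranked higher at 20% O2. Of 21, 11 and 11 had a peak at 4% O2 at equal length (52.4% in each). At 20% O2, 7 and 10 had one (33.3% and 47.6%). Over all genes the 4 shares were 11.1%, 12.9%, 4.65% and 9.96%. Jund, an AP-1 subunit, ranked 1658 and 2556 at 4% O2 and 97 and 88 at 20% O2. Jun ranked 3197 and 3319 against 238 and 680, and Dusp1, a phosphatase that ends MAP kinase signalling, 1058 and 1763 against 264 and 246. For each of these 3 genes both 20% O2 lists had the peak nearer the top than both 4% O2 lists. As a share of its own list Dusp1 turned in replicate 1, at 2.48% of the way down at 4% O2 and 4.90% at 20% O2. Btg2 and Fosb did not follow, at 276, 219, 1934 and 283 and at 324, 503, 2880 and 673, and Atf3 stood at 2862, 2280, 1654 and 1365. Junb and Bdnf were gained at equal length (3833 and 4649 against none and 8418, and 2720 and 3393 against none and 12103), and Fos, Egr3 and Nr4a2 with whole lists. Of the 7 genes shared at equal length in replicate 1, 2 ranked nearer the top at 4% O2, and of 9 in replicate 2, 5 did, beside 45.5% and 63.8% of all such genes.

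Oxidative phosphorylation was the one list of the 14 in which both 20% O2 lists reached more genes than both 4% O2 lists at equal length. At equal length 3 and 2 of 39 had a peak at 4% O2 (7.69% and 5.13%) and 5 and 5 at 20% O2 (12.8% in each), beside 11.1%, 12.9%, 4.65% and 9.96% of all genes. These differences rest on few genes and were not tested. Among the genes lost in both replicates were Ndufa10, whose ranks are given with its sequence, and Ndufs7, both subunits of complex I. Ndufs7 ranked 14194 and 5634 at 4% O2 against 1655 and 1390 at 20% O2. Ndufb5, a further complex I subunit, ranked 1825 and 5897 against 136 and 891. In each of these 3 genes both 20% O2 lists placed the peak nearer the top. Sdhb went the other way, at 2965 and 1420 at 4% O2 against 4253 and 7799 at 20% O2. As a share of its own list Ndufb5 stood at 4.27% and 43.2% against 2.52% and 6.66%, nearer the top at 20% O2 within each replicate number but not across them. Ndufb10 was gained at equal length, at 5150 and 2676 with none at 20% O2. With whole lists the counts were 31, 15, 5 and 18 of 39, no gene was lost in both replicates, and Ndufa1, Ndufs3, Ndufv1 and Cox6a1 were gained besides Ndufb10.

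Of 50 ribosomal protein genes, 12 and 13 had a peak at 4% O2 at equal length (24.0% and 26.0%). At 20% O2, 7 and 10 had one (14.0% and 20.0%). Over all genes the 4 shares were 11.1%, 12.9%, 4.65% and 9.96%. Rps27 and Rpl24 were lost in both replicates, at 555 and 1064 and at 3615 and 2404 at 20% O2. Rpl5, Rpl10a, Rpl14, Rpl38 and Rps16 were gained, and Rpl26 and Rps29 were among those kept. This list therefore had members in every class. Of 18 genes of the sympathoadrenal lineage, from which neuroblastoma arises, 7 and 5 had a peak at 4% O2 (38.9% and 27.8%). At 20% O2, 6 and 6 had one (33.3% in each). Ddc and Dbh, enzymes of catecholamine synthesis, and Slc18a1, a vesicular monoamine transporter, were kept in all 4 lists. Ddc ranked 1881, 2486, 545 and 2016 and Dbh 3535, 2418, 5325 and 3151, and neither separated the oxygen levels. Phox2a and Chgb were gained with whole lists, at 13394 and 6903 and at 13721 and 10503. Genes of other tissues, taken as a control, had a peak at 1 of 32 in each list (3.12%).

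Nos1, the synthase in the description of the line (chr5:117866839-117958840), lacked a peak within the gene or 5 kb of it in all 4 lists. Of 22 nitric oxide signalling genes, 3 and 5 had a peak at 4% O2 at equal length (13.6% and 22.7%). At 20% O2, 2 and 4 had one (9.09% and 18.2%). Over all genes the 4 shares were 11.1%, 12.9%, 4.65% and 9.96%. In both replicates 1 of the 22 was gained and 1 lost, beside 3.69% and 1.25% of all genes. Dynll1, a dynein light chain that also binds the neuronal synthase, was gained at equal length, at ranks of 1023 and 435 against none and 6405. Prkg1, a cyclic GMP dependent kinase, was lost, at 9888 and 13030 against 539 and 500. Hif1a itself had 2 and 1 peaks at 4% O2, with best ranks of 7988 and 4418, and none at 20% O2. Arnt had 2 and 1 at 4% O2 and 1 and 1 at 20% O2, with best ranks of 13163, 6269, 4252 and 7266.

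Motifs were counted in the 32619 RefSeq promoters, from 250 bases before to 50 bases after the start, on both strands. Of all promoters 19.8% held ACGTG, 1.80% TGACGTCA and 16.1% CCATNTT. Among promoters with the centre of one of the 5393 highest peaks, ACGTG was in 61.1% of 936 and 66.8% of 1191 at 4% O2, and in 28.3% of 322 and 50.5% of 981 at 20% O2. Both 4% O2 lists lay above both 20% O2 lists, and 20% O2 replicate 1 was nearest to the share in all promoters. TGACGTCA went the other way, with 6.84% and 7.56% at 4% O2 and 21.7% and 16.9% at 20% O2. CCATNTT was in 18.5% and 15.9% at 4% O2 and in 30.4% and 22.6% at 20% O2. GCGTG, in 32.6% of all promoters, was in 67.8% and 69.4% at 4% O2 and 43.5% and 59.3% at 20% O2. Promoters rich in CG dinucleotides hold GCGTG by composition, with 63.5% of the 8699 that have 20 or more CG, and ACGTG in 29.0%, TGACGTCA in 3.84% and CCATNTT in 12.3%.

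By class at equal length, 331 promoters lay at gained, 96 at kept and 118 at lost regions. ACGTG was in 67.1% of the gained, 57.3% of the kept and 19.5% of the lost. TGACGTCA was in 3.02%, 14.6% and 26.3%, and CCATNTT in 13.9%, 38.5% and 32.2%. Lost promoters thus held ACGTG at about the share of all promoters, and the other 2 motifs at a higher one. Kept promoters also held both at a higher share, and CCATNTT more often than lost promoters did. Because CCATNTT was searched after lost promoters had been seen, its share among them is not independent of that choice. The median number of CG was 25, 22 and 17, and among promoters with 20 or more CG the shares of ACGTG were 67.2%, 61.3% and 24.5% and those of TGACGTCA 3.83%, 17.7% and 34.7%. These counts describe the promoters, and a match is not a bound site.

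**Figure D5:**
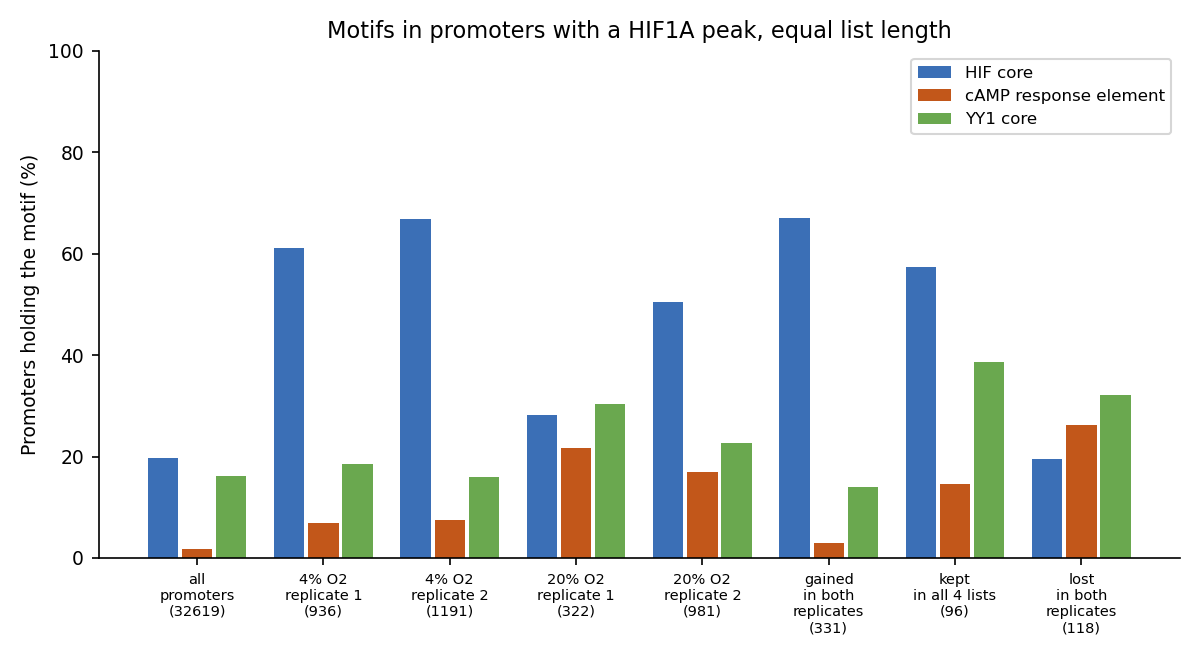
Bars give the percent of promoters that hold the HIF core ACGTG (blue), the cAMP response element TGACGTCA (orange) and the YY1 core CCATNTT (green) among all promoters, among those with a peak of each list at equal length and among the 3 region classes, with the number of promoters in brackets. The HIF core bar is at 67.1% in gained and 19.5% in lost promoters, and the cAMP element bar at 3.02% and 26.3%.

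The shares also moved with rank. Among promoters with one of the 100 highest peaks ACGTG was in 83.3% of 12, 90.6% of 32, 25.0% of 12 and 80.6% of 36, in the order 4% O2 replicates 1 and 2 and 20% O2 replicates 1 and 2. At the top of the lists 20% O2 replicate 2 was close to the 4% O2 lists, and at ranks 1001 to 5393 it lay between, with 46.0% beside 57.7% and 62.0% at 4% O2 and 28.9% in 20% O2 replicate 1. CCATNTT was in 91.7% of the 12 promoters at the top of 20% O2 replicate 1, against 16.7%, 18.8% and 25.0% in the other lists. For the 1 bp summits of replicate 2 the distance can be read directly. Of summits among the 1000 highest, ACGTG lay within 50 bp of 86.2% at 4% O2 (174 summits) and 59.0% at 20% O2 (166 summits), beside 7.84% and 7.89% for the same positions in all promoters. TGACGTCA lay within 50 bp of 3.45% and 16.9%, beside 0.866% and 0.892%, and CCATNTT of 6.32% and 20.5%, beside 5.47% and 5.48%. No genome was used, so regions outside promoters were not searched.

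ARNT, the partner of HIF1A, was looked up at the same regions, with whole ARNT lists that were not cut to an equal length. The ARNT lists and HIF1A replicate 1 were called against the same inputs, so they are not independent of it. Of the 1860 regions gained at equal length, 97.6% and 89.0% overlapped a peak of the ARNT lists at 4% O2 and 9.52% and 1.45% of those at 20% O2. For the 871 kept regions the shares were 98.4% and 58.8% at 4% O2 and 75.8% and 38.3% at 20% O2. For the 1515 lost regions they were 72.2% and 4.62% at 4% O2 and 58.9% and 20.5% at 20% O2. Over all 11210 regions they were 82.3% and 44.0% at 4% O2 and 35.4% and 10.7% at 20% O2. Gained and kept regions were thus above all regions in both ARNT lists of 4% O2. Lost and kept regions were above them in both ARNT lists of 20% O2, with the larger shares in kept regions. In replicate 1 of ARNT, lost regions had a larger share at 4% O2 (72.2%) than at 20% O2 (58.9%).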

How the data were processed

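Peak lists of 4 HIF1A samples were used, with 4 ARNT lists for overlap. Reads were processed with MACS2, BWA and Picard on mm10, per the submitters' processing notes; settings and versions: not given in the sources used here. Per the sample names in the files, peaks were called for each sample separately, HIF1A replicate 1 and every ARNT sample against input 4, HIF1A replicate 2 against input 5. Per the series' design text, the reads of replicate 2 and its inputs combine a pair of sequencing runs. The deposited score of each peak is the authors' own value on a scale that no header names, and it was used only to rank peaks within a list. The highest score was 1750 and 1687 at 4% O2 and 215 and 1018 at 20% O2.

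Peaks became windows of 201 bp around their centre, and overlap needed 1 bp. Regions over 4 lists joined each window with its deposited interval. Genes were the 21631 protein-coding genes of GRCm38.p6, with a peak centre within 5 kb of either end, and 324 list entries in 14 lists all matched, 7 by synonym. Of these genes 17274 have a promoter entry. Promoters were assigned to classes by replicate 2 summits. The members, gene lists and motifs were chosen with earlier results of these data known. Named genes were 8 in all cases (Hif1a, Arnt, Nos1, Vegfa, Egln3, Bnip3, Pgk1, Ldha), up to 4 per class of each list, and the 10 highest regions per class, by mean percentile rank. A few genes taken by it are not reported here, and genes named beyond it were chosen after their values were seen. Scripts used Python 3.11.15, numpy 2.4.6, pandas 2.3.3 and scipy 1.17.1 and were tested on simulated lists. Sequence depth is unknown, and single peaks carry no interval.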

Additional observations from a re-analysis of the deposited data

How the results depend on the processing

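The number of genes in each class depended on list length and replicate. At equal list length 799 genes were gained, 355 kept and 271 lost, beside 2048, 700 and 10 with whole lists. With 1 replicate left out, gained genes ranged from 2128 to 9287, kept genes from 987 to 3290 and lost genes from 19 to 1357, the larger gained count without replicate 2 and the larger kept and lost counts without replicate 1. Within 1 kb of a gene end 297 genes were kept and 5 lost, within 20 kb 2022 were kept, and counting the whole gene 1623 were kept. The gained share at equal length, 65.6%, was 76.6% with the 1000 highest peaks and 75.3% with the 2000 highest. The other 39 values under alternatives were counted as unchanged, by a rule that differed between results. Tested values needed only to keep their direction, shares to move by less than the replicate SD, and gene counts by less than 1.5 times. With n = 2 a share with 1 replicate left out always lies within that SD, so it could not count as moved. The gained share with whole lists was 50.2% without replicate 1 and 88.5% without replicate 2. Exchanging labels within replicate numbers cannot change a direction either. An interval joined with the window was added after seeing the data and gave a gained share of 69.2% with whole lists and 64.8% at equal length. Peaks as deposited gave 93.8%, since summits of 1 bp seldom coincide. Exchanging labels within replicate numbers (the block) left the log2 ratio at 1.51 and the gene-end difference at 12.7, with a smallest possible exact p of 0.5. Deviations of same-numbered lists from their group means correlated at 0.0659 over regions, or 0.000802 at equal length. A list without a peak in a region entered at percentile 0. With whole lists 55.0% of regions were in 4% O2 replicate 1 alone. The correlation therefore depends on which lists called a region, and it cannot decide whether same-numbered lists are pairs. The lists hold no depth, so it could not be measured how far a peak called in one list lies from the threshold of another.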
